A study of Mus musculus with 6 samples.

Results

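The genes described here are the peroxisome proliferator-activated receptor (PPAR) factors and their lipid-uptake targets: Pparg, Ppard and Ppara, the coactivator gene Ppargc1b, the fatty acid carrier genes Fabp4 and Fabp5, and Lpl and Angptl4. They were taken by gene symbol, a choice made with earlier results of these data known, and they are 8 of the 52459 genes in the count table. RNA was sequenced from C57BL/6 mouse bone marrow cells grown into macrophages with GM-CSF, a myeloid growth factor that all cultures received. The 3 piceatannol libraries came from cultures given piceatannol overnight from day 7, and the 3 control libraries from cultures given vehicle. Piceatannol is a plant stilbene related to resveratrol that is known to inhibit the kinase Syk. Its dose, and what the vehicle was, are not stated in the labels. Nothing in them says that replicates were separate mice or cultures, so each p-value reflects only the spread among these 6 libraries, which may be technical.

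PPARs are nuclear receptors that sense fatty acids and their derivatives. They bind DNA as pairs with a retinoid X receptor (RXR), at response elements built of direct repeats of the half-site AGGTCA with a single base between them. In macrophages they are known for controlling genes of lipid uptake, storage and oxidation, and PPAR gamma is known to be needed for the GM-CSF dependent macrophages of the lung.

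The libraries held between 33276569 and 49283203 counts in piceatannol and between 43586270 and 58697084 counts in control cultures. Of the 8 genes, 7 passed the filter on low counts and were tested among 15380 genes, and Ppara did not pass. With edgeR's quasi-likelihood test and Benjamini-Hochberg adjustment over all tested genes, 5 of the 7 rose, 1 fell and 1 did not pass the threshold of 0.05. The background is high: 77.0% of all tested genes passed in either direction, 38.8% upward and 38.3% downward, so a count of 6 in 7 is near it. Changes of at least 2-fold were found for 4 of the 7, against 34.0% of all tested genes. The median log2 fold change of the 7 was 0.90, beside 0.011 over all tested genes. The groups did not overlap for 6 of the 7, 5 of them higher in piceatannol, while over all tested genes 79.0% did not overlap and 39.9% were higher without overlap. Levels are given as CPM, gene counts scaled to library size, with mean ± SD over 3 libraries. Because these are bulk samples, fewer cells of a type and less RNA per cell cannot be told apart.

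**Figure D1:**
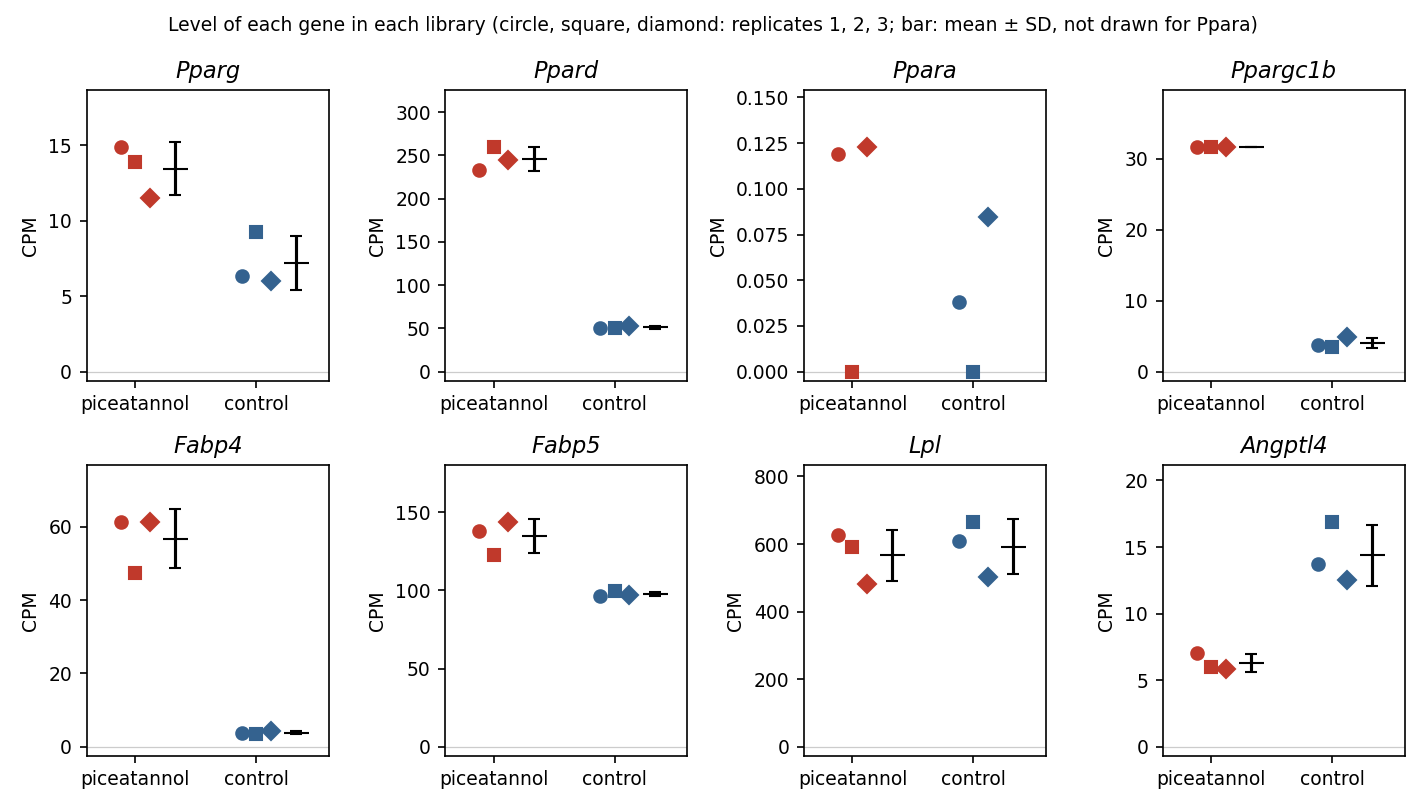
CPM (y axis, linear, from 0) of the 8 genes in the 3 piceatannol and 3 control libraries, each point a library, with the mean and SD beside the points. The piceatannol points of Ppard, Ppargc1b, Fabp4, Fabp5 and Pparg lie above every control point, those of Angptl4 below, and those of Lpl among them; Ppara lies at or under 0.123 CPM.

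Ppard, which encodes the receptor PPAR delta, is found in most tissues (chromosome 17, 28232700 to 28301474, GRCm38). It had 233, 260 and 245 CPM in piceatannol libraries, against 49.9, 50.3 and 53.3 CPM in control libraries. Every piceatannol library lay more than 4-fold above every control library. The log2 fold change was 2.27 ± 0.06 (SE), a 4.81-fold rise (adjusted p = 3.07e-17, edgeR's quasi-likelihood test). Larger changes, up or down, were found for 9.72% of the tested genes. On the length-scaled FPKM scale, 5.62% of the tested genes had a higher mean than Ppard in piceatannol libraries, and 29.5% did in control libraries.

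Pparg encodes PPAR gamma, the receptor that drives adipocyte formation and lipid handling in macrophages (chromosome 6, 115360951 to 115490399). Its levels were 14.9, 13.9 and 11.5 CPM in piceatannol libraries, against 6.36, 9.25 and 6.02 CPM in control libraries. The groups did not overlap, though the highest control library, replicate 2, came near the lowest piceatannol library, replicate 3. The rise was 1.87-fold, or 0.90 ± 0.15 (SE) on the log2 scale, with an adjusted p of 7.86e-05 in edgeR's quasi-likelihood test. Without control replicate 2 the log2 fold change was 1.11. A non-coding gene annotated on the opposite strand across a Pparg exon, Gm44079, had 0 counts in every library.

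Ppara encodes PPAR alpha, the receptor best known for fatty acid oxidation in liver (chromosome 15, 85734983 to 85802819). It was at the limit of detection, with 5, 0 and 6 counts in piceatannol libraries and 2, 0 and 5 counts in control libraries. The summed counts correspond to 0.0887 CPM in piceatannol (95% interval 0.0443 to 0.159) and 0.0449 CPM in control libraries (0.0181 to 0.0926), exact Poisson intervals that cover counting error only. The intervals overlap, and no difference could be detected at this depth.

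Sequences upstream of the receptor genes that changed are shown because the half-site and other motifs can be searched in them. RefSeq windows on GRCm38.p6 were at hand for 3 of the 8 genes, Pparg with 3 starts and Ppara and Ppard with 1 start each. The searched stretch was the 250 bases before each start, on both strands, and the printed part leaves out bases that GENCODE annotates as exon. The longest exon-free stretch of the first Pparg window, 57 bases, is not printed. The counts are per gene and do not say which Pparg start was used. Capitals mark matches, to CACGT in Ppard (the reverse complement of ACGTG, the core bound by hypoxia-inducible factors) and to GCGGGGTCA in the second Pparg window (the reverse complement of TGACNNNGC, the core of the antioxidant response element). Reading on the plus strand, 5′ to 3′, they are:
Ppard, chr17:28232504-28232699: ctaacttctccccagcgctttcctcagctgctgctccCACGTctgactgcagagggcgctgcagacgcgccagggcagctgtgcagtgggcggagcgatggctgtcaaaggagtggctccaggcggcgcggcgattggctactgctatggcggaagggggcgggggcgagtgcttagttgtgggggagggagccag
Pparg, second start, chr6:115362099-115362291: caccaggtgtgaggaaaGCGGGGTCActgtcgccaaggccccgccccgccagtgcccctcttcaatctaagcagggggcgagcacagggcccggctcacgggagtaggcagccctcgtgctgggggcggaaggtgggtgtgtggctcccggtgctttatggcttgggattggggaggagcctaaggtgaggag
Pparg, last start, chr6:115421816-115422065: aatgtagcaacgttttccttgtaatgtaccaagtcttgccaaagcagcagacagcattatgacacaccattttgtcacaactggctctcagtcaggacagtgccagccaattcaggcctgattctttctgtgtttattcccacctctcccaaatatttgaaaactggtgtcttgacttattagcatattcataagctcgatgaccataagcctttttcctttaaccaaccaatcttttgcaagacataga

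The full repeat AGGTCANAGGTCA was in none of the 5 windows of Pparg, Ppara and Ppard, and in 0.0335% of all 32851 windows of that length. The half-site AGGTCA, which the repeat contains, was found 28 bases before the first Pparg start and 9 bases before the second, in bases annotated as exon, and in 14.0% of all windows. ACGTG was matched 213 bases before the Ppard start and in 16.6% of all windows, and TGACNNNGC was matched 233 bases before the second Pparg start and in 10.2%. These matches describe letters in a window and do not show binding.

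Ppargc1b encodes PGC-1 beta, a coactivator of PPARs and of mitochondrial genes (chromosome 18, 61298136 to 61400431). It had 31.6, 31.7 and 31.7 CPM in piceatannol libraries, against 3.82, 3.44 and 4.82 CPM in control libraries. The highest piceatannol library exceeded the lowest 1.01-fold, and all lay far above the controls. The log2 fold change was 2.96 ± 0.11 (SE), a 7.80-fold rise (adjusted p = 1.93e-15, edgeR's quasi-likelihood test), exceeded in size by 5.12% of the tested genes. The microRNA gene Mir378a, on the same strand inside a Ppargc1b intron, had at most 3 counts in any library. The related coactivator gene Ppargc1a had 0.167 ± 0.0663 CPM in piceatannol and 0.21 ± 0.0241 CPM in control libraries (SD, n = 3 each) and did not pass the test (adjusted p = 0.567, edgeR's quasi-likelihood test).

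Fabp4 encodes the adipocyte and macrophage fatty acid-binding protein, a classic PPAR gamma target (chromosome 3, 10204088 to 10208576). Its levels were 61.3, 47.4 and 61.4 CPM in piceatannol libraries, against 3.73, 3.37 and 4.26 CPM in control libraries. No piceatannol library came near a control library, and replicate 2 was the lowest of each group. This was the largest change of the 7 tested genes, a log2 fold change of 3.90 ± 0.12 (SE) or 14.9-fold (adjusted p = 1.46e-14, edgeR's quasi-likelihood test). Larger changes were found for 2.23% of the tested genes. Adding 1 to FPKM values before taking logs, which compresses low levels, gave 2.86.

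Fabp5 encodes the epidermal fatty acid-binding protein, which is known to carry ligands to PPAR delta, and it is a neighbour of Fabp4 on chromosome 3 (10012548 to 10016607). Its levels were 138, 123 and 144 CPM in piceatannol libraries, against 96.6, 99.5 and 97.3 CPM in control libraries. The groups did not overlap, and the controls differed little among themselves. The rise was 1.38-fold, or 0.47 ± 0.06 (SE) on the log2 scale, with an adjusted p of 1.3e-06 in edgeR's quasi-likelihood test. Larger changes were found for 63.8% of the tested genes. Fabp5 has processed pseudogene copies in the genome: 5 transcripts aligned to it over at least 200 bases at 85% identity or more, and none did to the other 7 genes. These copies held between 107 and 209 counts per library in all, against 4078 to 7043 counts of Fabp5 in piceatannol and 4368 to 5752 counts in control libraries. How shared reads were assigned, or whether they were counted at all, is not stated. The Fabp5 value is therefore uncertain, and the counts of the copies do not bound by how much.

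Lpl encodes lipoprotein lipase, the secreted enzyme that frees fatty acids from lipoprotein triglycerides (chromosome 8, 68880491 to 68907448). It had 626, 591 and 482 CPM in piceatannol libraries and 609, 666 and 503 CPM in control libraries. The groups overlapped almost fully. The log2 fold change of -0.07 ± 0.12 (SE) did not pass (adjusted p = 0.64, edgeR's quasi-likelihood test). The 95% interval of the ratio, 0.789 to 1.16, leaves room for changes in either direction inside those bounds.

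Angptl4 encodes a secreted inhibitor of lipoprotein lipase and is known as a target of PPARs and of hypoxia-inducible factors (chromosome 17, 33773750 to 33781830). Its levels were 7.03, 5.96 and 5.86 CPM in piceatannol libraries, against 13.7, 16.9 and 12.5 CPM in control libraries. Every piceatannol library lay below every control library. It fell by 1.19 ± 0.12 (SE) on the log2 scale, 2.28-fold lower (adjusted p = 3.23e-08, edgeR's quasi-likelihood test). Among the 7 tested genes it was the only one to fall past the threshold.

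Within each group, Pparg, Lpl and Angptl4 put the libraries in the same order: replicate 1 highest and replicate 3 lowest among the piceatannol libraries, and replicate 2 highest and replicate 3 lowest among the controls. The highest library exceeded the lowest 1.29-fold for Pparg in piceatannol and 1.54-fold in control libraries. The coefficient of variation of Lpl was 13.3% in piceatannol and 14.0% in control libraries, and that of Angptl4 was 10.3% in piceatannol and 15.9% in control libraries. Fabp4 did not follow that order, with replicate 3 highest in both groups. This is a description of 3 libraries a group, with no test.

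The balance between related genes was read from the authors' FPKM values, which scale each gene by its length. PPAR genes summed to 56.9 ± 2.98 FPKM in piceatannol and 13.5 ± 0.551 FPKM in control libraries (SD, n = 3 each). Ppard held 92.1% ± 1.14 of that sum in piceatannol and 81.9% ± 3.77 in control libraries. Pparg held 9.08%, 7.74% and 6.83% in piceatannol libraries, against 16.6%, 22.4% and 15.1% in control libraries. The Pparg share was thus lower in all 3 piceatannol libraries although the Pparg level was higher in them (difference of mean shares -10.13 percentage points, exact permutation test, two-sided, p = 0.1).

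Fabp5 exceeded Fabp4 in every library. The log2 ratio of their FPKM values, with 0.1 added to each, was 1.49, 1.70 and 1.56 in piceatannol libraries, against 4.87, 5.05 and 4.70 in control libraries. Fabp5 stood at 3.0 times Fabp4 in piceatannol and 29.3 times in control libraries by the group means of the log2 ratio, which differed by -3.29 (exact permutation test, two-sided, p = 0.1). The log2 ratio of Angptl4 to Lpl was -4.74, -4.89 and -4.61 in piceatannol libraries, against -3.77, -3.60 and -3.63 in control libraries. Lpl exceeded its inhibitor 26.9-fold in piceatannol and 12.7-fold in control libraries, a difference of -1.08 in the log2 ratio of Angptl4 to Lpl (exact permutation test, two-sided, p = 0.1). For all 3 measures the groups did not overlap, and 0.1 is the smallest p that 3 against 3 libraries allow; adjusted over the 3 measures it is also 0.1.

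**Figure D2:**
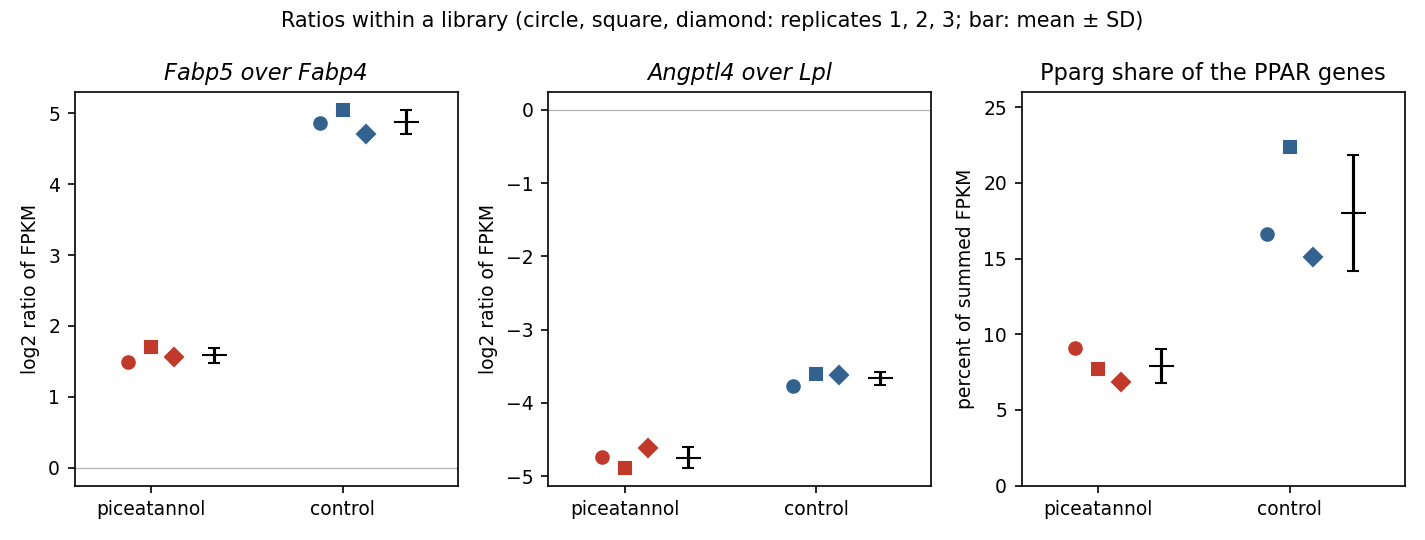
Per library values (points) with mean and SD of the log2 ratio of Fabp5 to Fabp4, the log2 ratio of Angptl4 to Lpl, and the percent of summed PPAR FPKM held by Pparg, in piceatannol and control libraries. All 3 measures are lower in each piceatannol library than in each control library, with means of 1.58 against 4.87, -4.75 against -3.67, and 7.88% against 18.02%.

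Ranked by mean FPKM, the order in piceatannol libraries was Lpl (53.2), Ppard (52.4), Fabp5 (37.3), Fabp4 (12.4), Ppargc1b (7.82), Pparg (4.48), Angptl4 (1.88) and Ppara (0.02). In control libraries it was Lpl (56.6), Fabp5 (27.4), Ppard (11.1), Angptl4 (4.37), Pparg (2.44), Ppargc1b (1.01), Fabp4 (0.843) and Ppara (0.01). Lpl and Ppard were not separated in piceatannol libraries, where Lpl ranged from 45.16 to 58.72 FPKM and Ppard from 49.52 to 55.57 FPKM. In control libraries Ppargc1b, at 0.87 to 1.21 FPKM, overlapped with Fabp4, at 0.75 to 0.95 FPKM. The other neighbours in each order did not overlap. Fabp4, below Angptl4 in each control library, was above it in each piceatannol library.

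**Figure D3:**
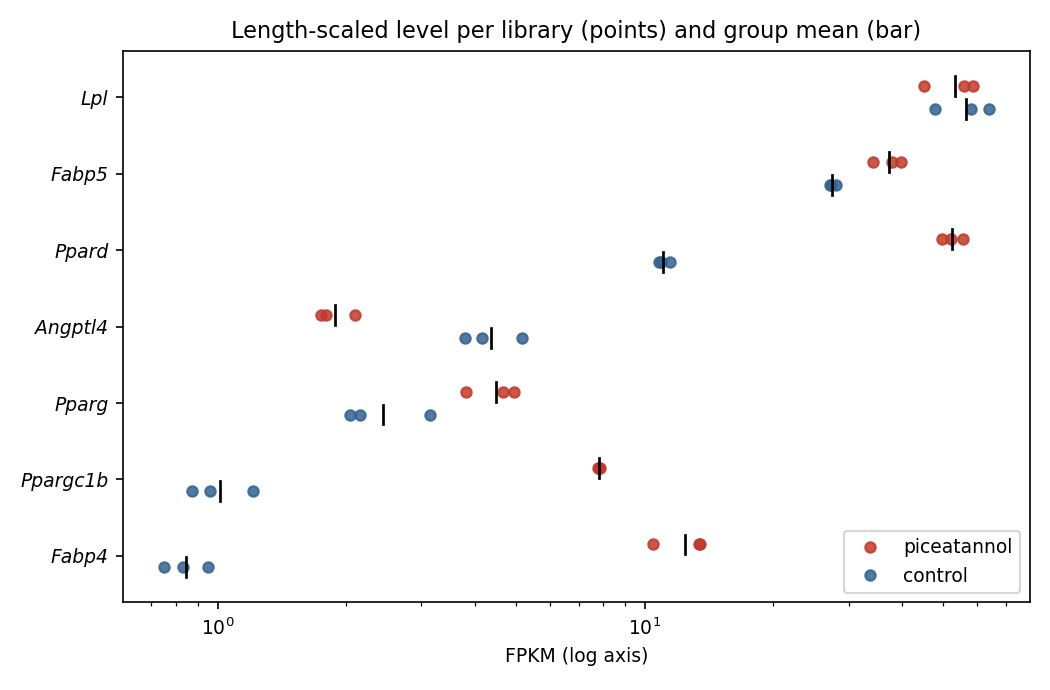
FPKM on a log axis of the 7 tested genes in each library (points) with the group mean (bar), genes ordered by their control mean. Fabp4 had the lowest control mean of the 7, 0.843 FPKM, and averaged 12.4 FPKM in piceatannol libraries, while Lpl stayed at the top of both groups at 53.2 and 56.6 FPKM.

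Other genes of the pathway were described from 5 lists, leaving out the 8 genes above. Beside each count stand the shares of all tested genes, of which 38.8% rose and 38.3% fell; no list's difference from them was tested. Of 20 tested RXR, coactivator and corepressor genes, 5 rose, 5 fell and 10 did not pass, with a median log2 fold change of -0.01 beside 0.011 for all tested genes. The coactivator genes Ncoa7 (0.41) and Ncoa1 (0.36) rose, and Pprc1, a relative of Ppargc1b, fell (-0.33). Rxra, singled out after its values were seen, had 109 ± 2.89 CPM in piceatannol and 113 ± 1.73 CPM in control libraries. It did not pass (adjusted p = 0.401, edgeR's quasi-likelihood test). Rxrb did not pass either (adjusted p = 0.11, edgeR's quasi-likelihood test). The mean FPKM of Rxrb was 23.5 in piceatannol and 21.9 in control libraries, against 19.6 and 20.7 for Rxra.

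Of 10 tested genes for the maturation, anchoring or regulation of lipoprotein lipase and related lipases, 9 rose and 1 fell, and the median change was 1.00 on the log2 scale. Lpl itself did not pass, and Angptl4 fell. Angptl6, a relative of Angptl4, rose to 15.8 ± 2.54 CPM in piceatannol libraries, against 3.44 ± 0.256 CPM in control libraries (log2 fold change 2.21). Sdc1, encoding a cell surface proteoglycan that binds lipoproteins, rose by 1.46 on the log2 scale. Lipa, the lysosomal acid lipase gene, rose by 1.08, and Furin, whose protease is known to cleave lipoprotein lipase and angiopoietin-like proteins, by 0.92. Gpihbp1, the endothelial anchor of the enzyme, and its activator gene Apoc2 had 0 counts in every library. The adjusted p of the genes named by rule in these lists was at most 0.000149 (Ncoa1, edgeR's quasi-likelihood test).

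Of 18 tested lipid uptake genes, 8 rose, 7 fell and 3 did not pass, with a median log2 fold change of 0.08. Cd36, a PPAR gamma target that encodes a fatty acid and oxidised lipoprotein receptor, had 381, 355 and 285 CPM in piceatannol libraries, against 95.4, 88.9 and 76.3 CPM in control libraries. The difference was 1.97 ± 0.12 (SE) on the log2 scale, with an adjusted p of 3.55e-07 in edgeR's quasi-likelihood test. Olr1, encoding another receptor for oxidised lipoprotein, rose by 1.23 on the log2 scale. Msr1, encoding scavenger receptor A, went the other way, with 88.6 ± 6.58 CPM in piceatannol and 460 ± 23 CPM in control libraries (log2 fold change -2.38). Acsl5, whose enzyme activates fatty acids, fell by 1.78 on the log2 scale.

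Of 26 tested fatty acid oxidation genes, 5 rose, 16 fell and 5 did not pass, beside 38.8% rising and 38.3% falling over all tested genes. The median log2 fold change of the 26 was -0.33. Ucp2, a mitochondrial carrier gene known to respond to PPARs, had 326 ± 16.9 CPM in piceatannol and 1046 ± 70.5 CPM in control libraries (log2 fold change -1.68). The peroxisomal oxidase gene Acox3 fell by 1.26, the dienoyl-CoA reductase gene Decr1 by 1.00 and the electron transfer gene Etfb by 0.85, on the log2 scale.

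Of 18 tested lipid storage and lipogenic genes, 11 rose, 6 fell and 1 did not pass, with a median log2 fold change of 0.66, also when Plin5, at 0 counts in control libraries, was set to its lower bound. Hilpda, encoding a lipid droplet protein that inhibits lipolysis, rose to 364 ± 22.3 CPM in piceatannol libraries, against 17.3 ± 0.585 CPM in control libraries (log2 fold change 4.39). Cebpb, a transcription factor gene of adipocyte and macrophage differentiation, rose by 2.15 on the log2 scale. Plin2, a droplet coat gene and PPAR target named after its values were seen, had 721 ± 79.6 CPM in piceatannol and 232 ± 15.7 CPM in control libraries (log2 fold change 1.64). Fads2, a fatty acid desaturase gene, fell to 3.08 ± 1.23 CPM in piceatannol libraries, against 41.1 ± 4.71 CPM in control libraries (-3.69), and Lipe, the hormone-sensitive lipase gene, fell by 1.83 on the log2 scale. Targets of the receptors therefore stood on both sides: Fabp4, Cd36 and Plin2 higher, Angptl4 and Ucp2 lower.

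**Figure D4:**
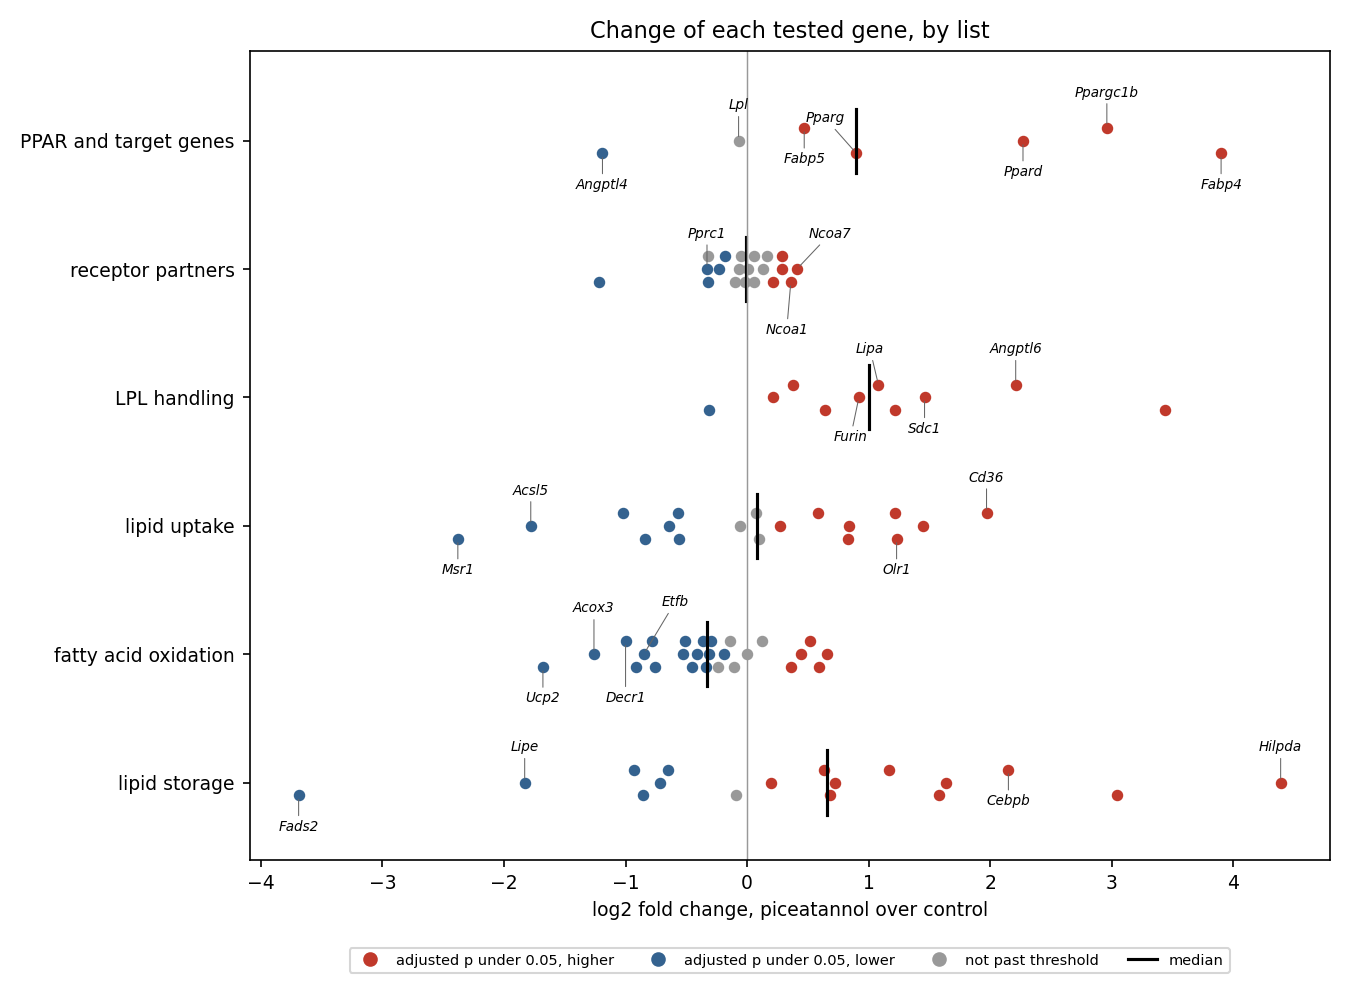
Log2 fold change, piceatannol over control, of each tested gene in the 7 PPAR and target genes and in 5 lists of related genes, coloured by direction and threshold, with the median of each list. Plin5, at 0 counts in control libraries, is not drawn. Oxidation genes lie mostly left of 0 (median -0.33), storage and lipase-handling genes mostly right (medians 0.66 and 1.00).

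The tested gene most like each of the 7 was sought by the root mean square difference of mean-centred log2 CPM over the 6 libraries, among 10236 candidates. Tbc1d9 was nearest to Fabp5 (0.0265), Ninj1 to Ppard (0.0516), Psat1 to Angptl4 (0.0555), Pms1 to Lpl (0.0813), Abcc5 to Ppargc1b (0.0856), Tatdn1 to Pparg (0.0902) and Cdo1 to Fabp4 (0.131). Within a difference of 0.1 there were 635 genes for Fabp5 and none for Fabp4, so the Fabp5 profile was a common one in these libraries. The distance takes in the difference between the groups, so genes near each other have similar log2 fold changes (Tbc1d9 0.48 and Fabp5 0.47). The counts did not follow the size of the change alone. Lpl (-0.07) had 21 genes within 0.1, fewer than Ppard (2.27), with 30, and Pparg (0.9) had 1. The spread among libraries of a group also enters the distance. The coefficient of variation was 13.3% in piceatannol and 14.0% in control libraries for Lpl, against 7.88% and 1.54% for Fabp5.

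Marker lists of the cultures moved as well. Over all tested genes 38.8% rose and 38.3% fell, and no marker list's difference from these shares was tested. The 10 macrophage markers, none of them at 0, summed to between 18065 and 19366 CPM in piceatannol and between 23587 and 27003 CPM in control libraries, with 3 rising and 6 falling. The genes named from the marker lists were chosen after their values were seen. Lyz2, the lysozyme gene that carries most of that sum, had 10224 ± 830 CPM in piceatannol and 14876 ± 1791 CPM in control libraries (SD, n = 3 each). Other markers of macrophages moved both ways. Adgre1, which encodes F4/80, was 3.96-fold lower, Itgam 4.37-fold lower and Fcgr1 10.2-fold lower in piceatannol libraries. Cd14 was 3.8-fold and Cd68 2.16-fold higher in piceatannol libraries. Adipocyte markers bear on Fabp4 and Pparg, which adipocytes also express: 8 of 10 stayed under 1 CPM in every library, and Lep and Aqp7 had 0 counts. The whole list summed to between 32.1 and 38.0 CPM in piceatannol and between 116 and 140 CPM in control libraries. Almost all of that was Lipe, which macrophages also express, with 35.0 ± 3.72 CPM in piceatannol and 125 ± 13.2 CPM in control libraries (SD, n = 3 each). The 9 others summed to between 0.594 and 1.31 CPM in piceatannol and between 0.0946 and 0.389 CPM in control libraries. Retn, encoding resistin, was the other tested marker, and it rose by 2.75 on the log2 scale. Stromal markers, 6 of 10 of which fell and 1 rose, summed to between 566 and 633 CPM in piceatannol and between 2314 and 2572 CPM in control libraries, with none at 0 and all 10 passing the filter on low counts, as the macrophage markers did. Dendritic cell markers fell in 7 of 9 tested cases and rose in 1, with sums of 828 to 1029 CPM in piceatannol and 1603 to 1733 CPM in control libraries. Granulocyte markers fell in 8 of 8 tested cases, with sums of 34.3 to 41.3 CPM in piceatannol and 256 to 603 CPM in control libraries. The part of adipocytes and of stromal, dendritic and granulocytic cells in the changes of the PPAR and target genes was not tested.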

How the data were processed

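For the same 6 libraries the authors deposited 2 tables, raw counts and FPKM values, by gene symbol. The submitters' processing notes name bcl2fastq, STAR, featureCounts and DESeq2 and the builds mm10 and GRCm38, without versions; they give neither annotation nor strand setting. A TruSeq kit was used on 1 µg of RNA, per the labels' protocols.

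Counts were filtered with edgeR 4.0.16 (filterByExpr, minimum count 10), which kept 15380 genes and between 99.94% and 99.958% of each library's counts, and scaled with TMM factors between 0.9848 and 1.016. The quasi-likelihood test, two-sided, set piceatannol against control with robust dispersions and no covariate, adjusted over all tested genes at 0.05. The SE is the log2 fold change divided by the square root of F. CPM uses the scaled library totals. The scripts were tested on simulated counts. There the fit recovered 70.1% of 67 genes changed 1.5-fold, 80.6% of 67 changed 2-fold and 97% of 66 changed 4-fold. Of the 15137 genes tested in them, 20 unchanged ones were also called, a number to be read beside the recovered genes. No other genes were changed in the simulation, whereas 77% of the tested genes passed in the real data. The recovered shares and false calls therefore need not carry over. The Ppara intervals cover counting error only, and the reads carry no molecular identifiers. The interval of the Lpl ratio was taken from the SE of the fit, which reflects the spread among libraries. Counts of replicate libraries differed beyond sampling noise (chi-square per degree of freedom 9.913 to 18.23).

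The members and lists were chosen with earlier results of these data known. Genes of a list were named by size: up to 4 with the largest change among those called, provided the groups did not overlap and mean log2 CPM reached 2. A gene that this rule names is not reported here. Gene positions are from GENCODE release M21 (GRCm38) and upstream sequences from RefSeq (GRCm38.p6). Copies of the 8 genes were sought with blastn among GENCODE transcripts. Alternatives were RLE, upper-quartile and library-total scaling, no filter, a filter of 5 CPM in 3 libraries, DESeq2 1.42.0, limma 3.58.1 (voom, and log2 FPKM with 1 or 0.1 added), the replicate number as a block, and leaving out each library.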

Additional observations from a re-analysis of the deposited data

How the results depend on the processing

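Under all 16 alternatives, Pparg, Ppard, Ppargc1b, Fabp4, Fabp5 and Angptl4 kept their direction and their side of the threshold; log2 fold changes ranged from 0.68 to 1.11 for Pparg, 2.86 to 4.01 for Fabp4, 2.13 to 3.12 for Ppargc1b and -1.29 to -0.89 for Angptl4, the values nearest 0 of these 4 genes coming from log2(FPKM + 1), which compresses low levels. Lpl never passed (adjusted p between 0.116 and 0.962), and leaving out each library gave -0.17 to 0.04; its sign turned without control replicate 2 (0.02) and without piceatannol replicate 3 (0.04). With 1 in place of 0.1 added to FPKM, the difference of the log2 ratio was -2.43 for Fabp5 to Fabp4 and -0.81 for Angptl4 to Lpl. Leaving out each library gave -3.37 to -3.20, -1.15 to -1.01, and -11.61 to -7.96 percentage points for the Pparg share. Genes called overall lay between 8802 (strict filter, which tests fewer genes) and 12744 (no filter). In the labels, libraries of the same number had only that number to link them. Their deviations correlated at 0.0369 to 0.0696, each being closest to its own number. How often this would arise by chance was not worked out, so it does not show that libraries were paired. With the replicate number as a block, 12012 genes were called and Pparg stood at 0.92. In edgeR's quasi-likelihood test the block moved adjusted p both ways, for Pparg from 7.86e-05 to 1.3e-06 and for Fads2 from 1.69e-05 to 0.000924. Depth limits Ppara, and 3 libraries a group limit the ratio tests.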

Other observations

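GM-CSF and PPAR gamma are known to shape the alveolar macrophages of the lung, so 12 markers of those cells were looked at beside the rise of Pparg. Of 8 tested, 2 rose and 5 fell, beside 38.8% rising and 38.3% falling over all tested genes. The list's difference from those shares was not tested. The sums over all 12 overlapped between piceatannol (4340 to 5136 CPM) and control libraries (4278 to 4878 CPM), but most of each sum was Csf2rb, a GM-CSF receptor gene with 4114 ± 371 CPM in piceatannol and 2626 ± 112 CPM in control libraries (SD, n = 3 each), which rose by 0.65 on the log2 scale. The 11 others summed to between 623 and 684 CPM in piceatannol and between 1751 and 2131 CPM in control libraries, without overlap; leaving out Csf2rb was chosen after seeing the data. Named after their values were seen, the scavenger receptor gene Marco rose to 6.95 ± 1.92 CPM in piceatannol libraries, against 2.31 ± 0.344 CPM in control libraries. Plet1 had 212 ± 23.5 CPM in piceatannol and 976 ± 169 CPM in control libraries, and the carbonic anhydrase gene Car4 had 79.3 ± 6.74 CPM in piceatannol and 183 ± 15.6 CPM in control libraries (SD, n = 3 each), log2 fold changes of -2.20 and -1.21. Ear1, Krt79, Fabp1 and Cidec stayed under 1 CPM in every library.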
